A study of Mus musculus with 8 samples.

Results

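Melanocytes that lack the autophagy gene Atg7 were compared with Atg7-competent melanocytes after both had been irradiated with UVA-1. The comparison rests on 4 of the 8 arrays of the series: 2 arrays labelled KO_UVA against 2 labelled WT_UVA, chosen by genotype and treatment alone. The WT cells carried floxed Atg7 alleles (Atg7 f/f), and the KO cells carried the same alleles together with a Cre recombinase under the tyrosinase promoter (Atg7 f/f Tyr::Cre). All cells came from pups 1 to 5 days old, were labelled female, were cultured for 22 days in melanocyte growth medium, received 20 J/cm² of UVA-1 and were lysed 6 h later. The remaining 4 arrays hold the same genotypes after sham treatment, WT_ctrl and KO_ctrl with 2 arrays each, and serve here as the background of the genotype difference without irradiation. The submitters call the duplicates biological, and the titles number them 1 and 2 in every group. Arrays of the same number were compared with each other, giving pair 1 and pair 2. Values are log2 of the deposited array intensities for 22180 genes, and a difference of 1 on this scale is a factor of 2. There are 2 arrays in a group, and this small number limits how precise any value is. Because the Cre is expressed from a pigment cell promoter, other cell types in a culture keep an intact Atg7 gene, and their RNA is part of both genotypes' samples.

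Autophagy encloses cytoplasm in a double membrane and delivers it to the lysosome. Atg7 is the E1-like enzyme that activates the ubiquitin-like proteins ATG12 and LC3, and without it LC3 is not attached to the membrane. Cargo receptors such as p62, encoded by Sqstm1, then accumulate as proteins, and p62 can bind KEAP1, the adaptor that otherwise sends the transcription factor NRF2 for degradation. NRF2 drives genes of detoxification, glutathione synthesis and NADPH supply. UVA-1 is ultraviolet A of the longer wavelengths and acts on skin cells largely through oxidation. The series title links autophagy deficiency to the senescence associated secretory phenotype (SASP), the set of chemokines, cytokines and proteases that senescent cells release.

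The 2 numbers differed from each other more than the genotypes did. Across genes, the WT_UVA and KO_UVA arrays correlated at r = 0.997 in pair 1 and 0.990 in pair 2, whereas the WT_UVA duplicates correlated at 0.962 and the KO_UVA duplicates at 0.978. Melanocyte genes were expressed in all 4 arrays: Tyrp1, Dct, Pmel and Mlana, enzymes and structural proteins of the pigment granule, read between 13.21 and 14.19. The melanocyte markers Tyr and Mitf read lower, at 10.19 and 10.34 in WT_UVA 1 and at 10.43 and 10.28 in KO_UVA 1. Fibroblast markers also read high. The mean log2 level of 12 fibroblast markers was 11.59 in WT_UVA 1 and 11.62 in KO_UVA 1, against 9.18 in WT_UVA 2 and 10.31 in KO_UVA 2. Their summed intensity was 53390 and 53292 in pair 1, and 9167 and 20753 in pair 2. The arrays of number 1 thus had the higher fibroblast marker level in both genotypes, and within pair 2 the KO array read higher than the WT array. All 12 fibroblast markers were measured, and 4 of them (33.3%) read higher in KO in both pairs and 0 lower, beside 19.0% and 26.1% of all genes. Their median difference was -0.02 in pair 1 and 1.19 in pair 2. The 10 melanocyte markers had mean levels of 11.67 and 11.78 in pair 1, and of 12.73 and 12.37 in pair 2. In pair 1 these means lay close to those of the fibroblast markers. Keratinocyte, myeloid, mast cell and skeletal muscle markers had mean levels between 5.02 and 6.97 in the 4 arrays, endothelial markers between 7.49 and 7.75, and Schwann cell markers, some of which pigment cells share, between 8.58 and 9.02. In RNA from a whole culture, fewer cells of a type and less RNA per cell cannot be told apart.

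**Figure D1:**
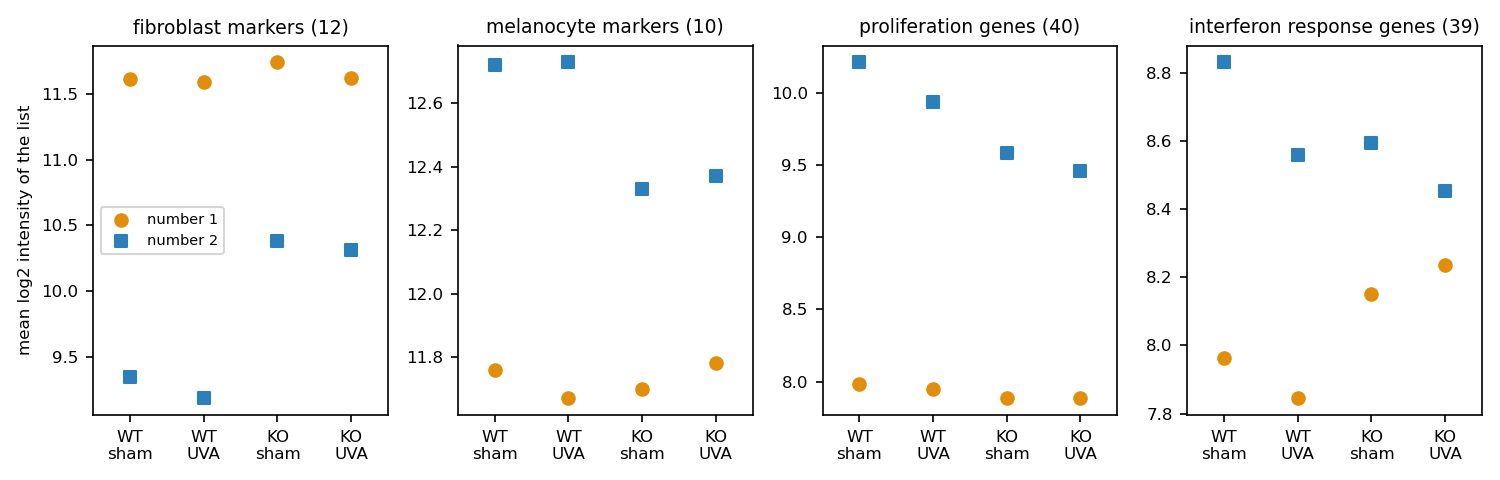
Mean log2 intensity of 4 gene lists in each of the 8 arrays, with number 1 as circles and number 2 as squares and the size of each list in its title; the vertical axes differ between panels and do not start at 0. Fibroblast markers read 9.18 in WT_UVA 2 and 10.31 in KO_UVA 2, and 11.59 and 11.62 in the corresponding arrays of number 1.

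The sex label did not match the Y-linked genes. Eif2s3y, a translation factor subunit gene on the Y chromosome, read 6.36 in WT_UVA 1, 8.71 in KO_UVA 1, 9.70 in WT_UVA 2 and 9.50 in KO_UVA 2. Uty, a histone demethylase homologue on the Y chromosome, read 5.13, 7.38, 8.52 and 8.54 in the same order. Kdm5d, another Y-linked demethylase gene, read 5.32, 7.27, 8.42 and 8.21. All 3 were low only in the WT array of pair 1, although every sample is labelled female. Xist, the RNA of the inactive X chromosome, read between 11.81 and 12.21 in all 4 arrays. The 3 Y-linked genes therefore headed the genes higher in KO in pair 1, with differences of 2.35, 2.25 and 1.95. Their sham values showed the same order, so the cultures compared in pair 1 differed in Y-linked expression as well as in genotype, and the part of this difference in other pair 1 results was not tested. These 3 genes and Xist were looked up after the leading genes of pair 1 had been seen.

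No gene passed the test of genotype after UVA-1. With limma, fitted to all 8 arrays with the replicate number as a block, 0 of 22180 genes (0%) had an adjusted p below 0.05. At an unadjusted p below 0.05 there were 460 genes higher in KO (2.07%) and 467 lower (2.11%), 927 in all, where 1109 would be expected if no gene differed. The smallest adjusted p was 0.108, for Ap1s2. Differences between genotypes are therefore given below as readings of single arrays, and none is called a change.

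The pairs agreed on few genes. Of the 22180 genes, 9999 (45.1%) differed in the same direction in both pairs, 4221 of them higher in KO (19.0%) and 5778 lower (26.1%). Genes with equal KO and WT readings in a pair were counted as not agreeing, which lowers this share. Across genes, which are not independent replicates, the differences of the 2 pairs had r = 0.0027 and rho = -0.02. Differences were wider in pair 2, with an SD over genes of 0.306 against 0.174 in pair 1. At 1.5-fold, 103 genes were higher and 67 lower in KO in pair 1, and 768 were higher and 339 lower in pair 2. Both pairs met 1.5-fold in the same direction for 25 genes, 19 higher (0.0857% of all genes) and 6 lower (0.0271%). The 19 genes were 18.4% of those higher in pair 1 and 2.47% of those higher in pair 2. The 6 genes were 8.96% of those lower in pair 1 and 1.77% of those lower in pair 2. A further 14 genes met 1.5-fold in opposite directions.

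**Figure D2:**
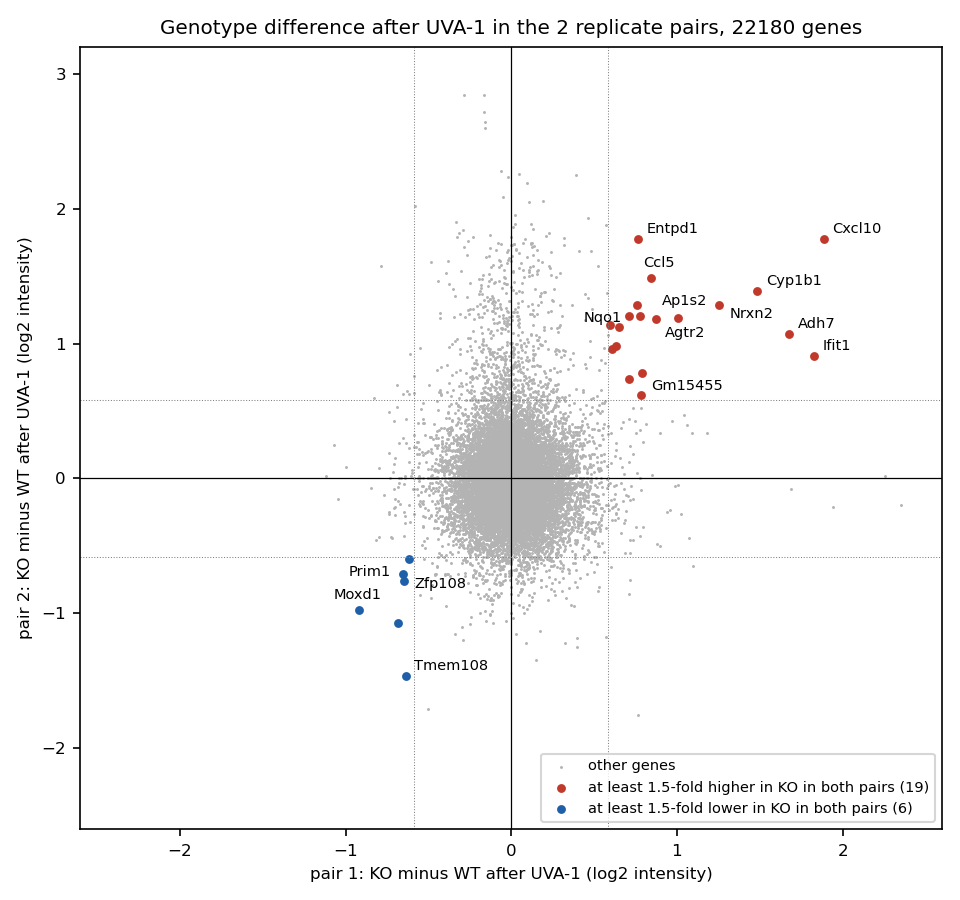
KO minus WT difference after UVA-1 in pair 1 (horizontal axis) and pair 2 (vertical axis), in log2 intensity, 1 point per gene for 22180 genes; dotted lines mark 1.5-fold. The 19 genes higher in KO in both pairs are red and the 6 lower are blue, and the cloud is taller than wide, with SDs of 0.306 in pair 2 and 0.174 in pair 1.

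Atg7 itself read lower in both KO arrays. Its levels were 9.97 in WT_UVA 1, 9.65 in KO_UVA 1, 9.70 in WT_UVA 2 and 9.23 in KO_UVA 2, so that the KO arrays lay below the WT arrays. The difference was -0.39 (SE 0.10, limma adjusted p = 0.958), or 0.761 times the WT level, and it was -0.32 in pair 1 and -0.47 in pair 2. After sham treatment the pairs differed by -0.25 and -0.52. Whole-transcript probe sets cover many exons, and where the probes lie against the deleted part of Atg7 is not given in the sources used here. A residual signal is thus no measure of how many cells had lost the gene.

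Other autophagy genes read close together in the 2 genotypes. Of 34 genes of the autophagy machinery, 6 (17.6%) were higher and 8 (23.5%) lower in both pairs, beside 19.0% and 26.1% of all genes; the median difference was -0.03 in pair 1 and 0.03 in pair 2. Map1lc3b, the gene of the LC3 protein used as an autophagosome marker, differed by 0.07 in pair 1 and 0.15 in pair 2. Sqstm1 read 13.30 in WT_UVA 1, 13.41 in KO_UVA 1, 13.40 in WT_UVA 2 and 13.49 in KO_UVA 2, a difference of 0.10 (SE 0.05, limma adjusted p = 0.958). The Sqstm1 differences were nearly equal in the pairs, at 0.11 and 0.10, but amounted to 1.07-fold. Of 12 autophagy receptor genes 6 (50.0%) read higher in both pairs and none lower, beside 19.0% and 26.1% of all genes. Of 33 lysosomal genes 12 (36.4%) were higher and 6 (18.2%) lower in both pairs, with medians of 0.01 and 0.04, and none reached 1.2-fold in both. The cathepsin gene Ctsk differed by 0.00 in pair 1 and 1.79 in pair 2.

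The 19 genes that read at least 1.5-fold higher in KO in both pairs held chemokine and interferon-response genes (Cxcl10, Ccl5, Ifit1), genes of xenobiotic and retinoid metabolism (Cyp1b1, Adh7, Nqo1), matrix metalloproteinases (Mmp13, Mmp1b), and genes of membrane traffic, adhesion and signalling (Ap1s2, Nrxn2, Agtr2, Entpd1, Prkcb). The others were Saa3, an acute-phase serum amyloid gene, Pla1a, a phospholipase gene, Lce1h, a gene of the cornified envelope family, Sh2d1b1, an adaptor gene of immune cells, and Gm15455 and Spn-ps. Among these genes the smallest difference of a pair was that of Mmp1b in pair 1, at 0.59, and the largest that of Cxcl10 in pair 1, at 1.89. In 8 of these 19 genes both KO arrays lay above both WT arrays. That can occur only in genes higher in both pairs, and it was so for 1549 of those 4221 genes (6.98% of all genes). Having been chosen by direction, the 19 genes are to be set beside the 4221. Ifit1, Mmp1b, Saa3 and Spn-ps belong to families or pairs with closely similar copies, whose signals an array may not separate.

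Cxcl10, a chemokine induced by interferon that attracts T cells, had the largest difference shared by the pairs. It read 7.53 in WT_UVA 1, 9.42 in KO_UVA 1, 9.18 in WT_UVA 2 and 10.95 in KO_UVA 2. Both KO arrays lay above both WT arrays, although KO_UVA 1 and WT_UVA 2 were close. The pair differences were 1.89 and 1.78, and the difference was 1.83 (SE 0.29, limma adjusted p = 0.783), or 3.56-fold. Ccl5, a chemokine for T cells and monocytes, read 6.46, 7.30, 6.83 and 8.32 in the same order, with pair differences of 0.84 and 1.49. Ifit1, an interferon-induced protein that binds foreign RNA, read 7.41, 9.24, 9.15 and 10.05. Its difference was larger in pair 1 (1.83) than in pair 2 (0.91), and KO_UVA 1 lay just above WT_UVA 2.

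Nqo1, a quinone reductase and a standard NRF2 target, read 10.05 in WT_UVA 1, 10.82 in KO_UVA 1, 10.73 in WT_UVA 2 and 11.93 in KO_UVA 2. The KO arrays lay above the WT arrays, with a difference of 0.99 (SE 0.13, limma adjusted p = 0.356), or 1.99-fold. Cyp1b1, a cytochrome P450 that oxidises polycyclic hydrocarbons and steroids and is best known as a target of the aryl hydrocarbon receptor, read 7.82, 9.31, 9.36 and 10.74. Its pair differences of 1.49 and 1.39 were close to each other, while the KO array of pair 1 lay just under the WT array of pair 2, so that the groups overlapped. Adh7, an alcohol dehydrogenase that also acts on retinol, read 9.87, 11.54, 11.93 and 13.00. The groups overlapped in the same way, with pair differences of 1.68 and 1.07. The limma adjusted p was 0.171 for Cyp1b1 (difference 1.44, SE 0.15) and 0.318 for Adh7 (difference 1.37, SE 0.16).

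Ap1s2, a small subunit of the AP-1 adaptor, a coat complex unrelated to the AP-1 transcription factor that sorts cargo from the Golgi and from endosomes to other organelles, including melanosomes, had the smallest adjusted p. It read 10.08 in WT_UVA 1, 11.09 in KO_UVA 1, 10.60 in WT_UVA 2 and 11.79 in KO_UVA 2. Both KO arrays lay above both WT arrays, and the difference was 1.10 (SE 0.09, limma adjusted p = 0.108), or 2.14-fold. Ap1s1, which encodes another form of the same subunit, read 10.26, 10.14, 10.21 and 10.27 in that order, with pair differences of -0.11 and 0.06. Nrxn2, a gene of the neurexin family of cell adhesion molecules, read 8.08, 9.34, 8.55 and 9.83. Its difference of 1.27 (SE 0.12, limma adjusted p = 0.171) was 0.65 when all its probe sets were averaged in place of using the brightest. Entpd1, an ectonucleotidase that degrades extracellular ATP, read 5.98, 6.74, 9.20 and 10.97, with the larger difference in pair 2.

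Mmp13, a collagenase, read 10.23 in WT_UVA 1, 10.99 in KO_UVA 1, 8.57 in WT_UVA 2 and 9.86 in KO_UVA 2. Its level was higher in number 1 than in number 2 in both genotypes, so the groups overlapped, with pair differences of 0.76 and 1.29. Agtr2, the type 2 angiotensin receptor gene, had the same order, at 8.56, 9.44, 6.32 and 7.51. The limma adjusted p was 0.356 for both genes. Prkcb, a protein kinase C form known to activate tyrosinase in melanocytes, differed by 0.63 in pair 1 and 0.98 in pair 2.

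**Figure D3:**
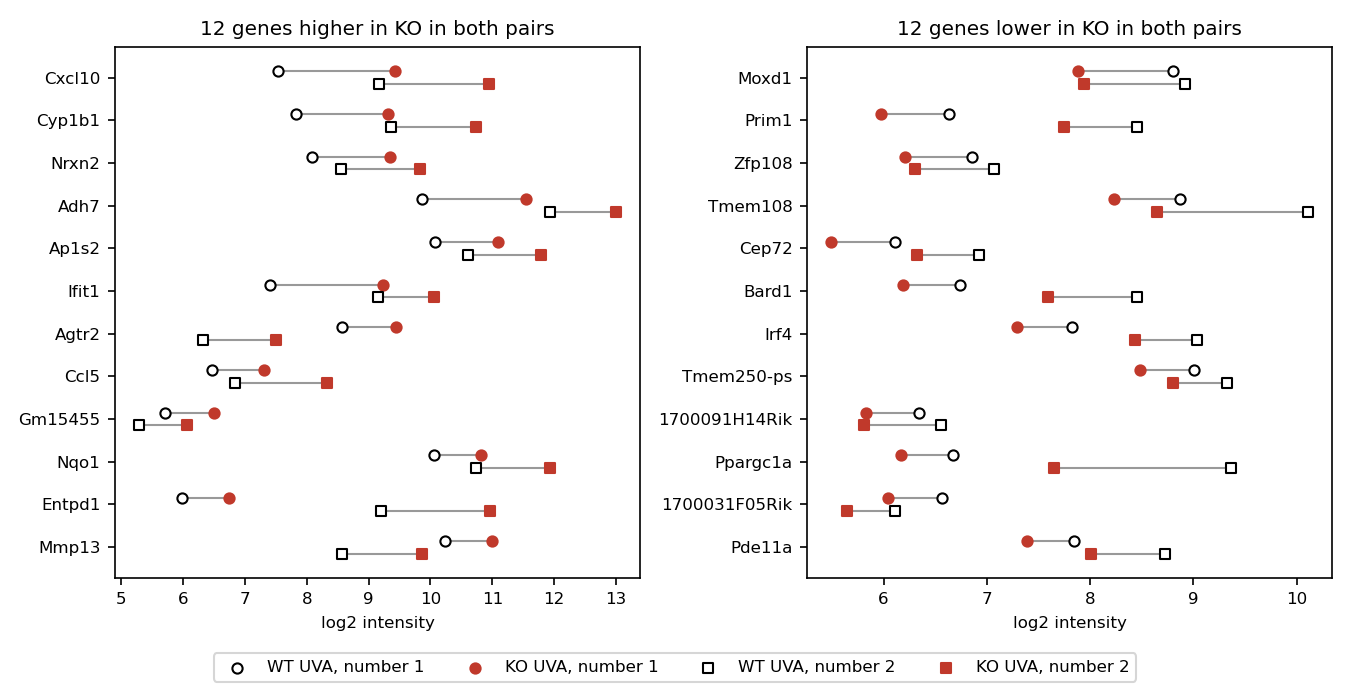
Log2 intensity of the 12 genes higher and the 12 genes lower in KO with the largest smaller pair difference, in the 4 UVA arrays; open symbols are WT, filled symbols KO, circles number 1 and squares number 2, and a line joins the arrays of a pair. Each line of the left panel runs from WT up to KO and each line of the right panel from WT down to KO, and for Cyp1b1 and Adh7 the KO symbol of number 1 (9.31 and 11.54) lies left of the WT symbol of number 2 (9.36 and 11.93).

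The promoters of Cxcl10, Ifit1, Mmp13 and Adh7 are printed because these genes read higher in KO in both pairs and hold matches to the motifs searched. The sequences are RefSeq upstream windows of GRCm38.p6, 5′ to 3′ on the gene's strand, ending at the base before the transcript start; capitals mark the matches.
Cxcl10, chr5:92348890-92349139, minus strand: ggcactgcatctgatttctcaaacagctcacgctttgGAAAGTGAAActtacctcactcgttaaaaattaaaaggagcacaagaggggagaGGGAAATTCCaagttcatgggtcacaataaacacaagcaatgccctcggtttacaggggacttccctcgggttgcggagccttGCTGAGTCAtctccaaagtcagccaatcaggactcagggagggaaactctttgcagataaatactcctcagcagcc
Ifit1, chr19:34640739-34640888, plus strand: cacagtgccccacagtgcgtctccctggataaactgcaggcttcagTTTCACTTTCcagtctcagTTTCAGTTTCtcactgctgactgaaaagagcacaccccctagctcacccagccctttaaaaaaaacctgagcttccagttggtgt
Mmp13, chr9:7272364-7272513, plus strand: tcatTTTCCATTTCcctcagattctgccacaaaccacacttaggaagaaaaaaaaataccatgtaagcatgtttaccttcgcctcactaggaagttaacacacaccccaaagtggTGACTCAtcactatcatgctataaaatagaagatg
Adh7, chr3:138217623-138217772, plus strand: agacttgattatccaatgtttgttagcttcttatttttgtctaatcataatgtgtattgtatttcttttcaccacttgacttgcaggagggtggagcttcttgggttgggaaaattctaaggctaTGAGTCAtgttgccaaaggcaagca
The motifs, searched on both strands of windows of 300 bases, were the interferon element (GAAA, any 2 bases, GAAA), the NF-kB site (GGGA, any 2 bases, TTCC), the AP-1 site TGANTCA and the NRF2 element TGACNNNGC. In the Cxcl10 window GAAAGTGAAA and GGGAAATTCC match the first and second of these, and GCTGAGTCA is an NRF2 element match on the other strand that overlaps the AP-1 match TGAGTCA. Ifit1 holds the interferon element in both TTTCACTTTC and TTTCAGTTTC. Mmp13 holds TTTCCATTTC, an interferon element match, and the AP-1 match TGACTCA, and Adh7 holds the AP-1 match TGAGTCA. Of the 12 leading genes higher in KO 10 had a window, and 3 of these matched the interferon element, 3 the AP-1 site, 1 the NF-kB site and 1 the NRF2 element. Of the 12 leading genes lower in KO 11 had a window, and none matched any of the 4 motifs. Among 32851 promoter windows of the same length, 3.44% held the interferon element, 7.81% the AP-1 site, 1.47% the NF-kB site and 12.4% the NRF2 element. These matches describe the letters of the windows only.

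The 6 genes at least 1.5-fold lower in KO in both pairs were Moxd1, Tmem108, Zfp108, Prim1, Cep72 and Khdc1a. In 4 of them both KO arrays lay below both WT arrays. That can occur only in genes lower in both pairs, and it was so for 2457 of those 5778 genes (11.1% of all genes). Moxd1, which encodes a monooxygenase of the dopamine beta-hydroxylase family, read 8.80 in WT_UVA 1, 7.88 in KO_UVA 1, 8.92 in WT_UVA 2 and 7.94 in KO_UVA 2. The duplicates of each genotype read close together, with a difference of -0.95 (SE 0.10, limma adjusted p = 0.171), or 0.519 times the WT level. Tmem108, a transmembrane protein gene, read 8.87, 8.23, 10.11 and 8.65, with pair differences of -0.64 and -1.47. Its difference of -1.05 was -0.63 when its probe sets were averaged. Zfp108, a zinc finger gene, read 6.86, 6.21, 7.07 and 6.30. Prim1, the catalytic subunit of DNA primase, differed by -0.65 and -0.71, and Cep72, a centrosome protein gene, by -0.62 and -0.60. Khdc1a was dim, at 5.21, 4.52, 5.39 and 4.32.

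The other genes among the 12 leading ones lower in KO were Bard1, Irf4, Ppargc1a, Pde11a, Tmem250-ps, 1700091H14Rik and 1700031F05Rik, which did not reach 1.5-fold in both pairs. Irf4, a transcription factor that acts with MITF on the tyrosinase gene in melanocytes, read 7.82 in WT_UVA 1, 7.30 in KO_UVA 1, 9.03 in WT_UVA 2 and 8.43 in KO_UVA 2, and its groups overlapped. Bard1, the partner of BRCA1 in DNA repair, differed by -0.55 and -0.86. Ppargc1a, the gene of a coactivator of mitochondrial biogenesis, differed by -0.50 in pair 1 and -1.71 in pair 2. Pde11a, a cyclic nucleotide phosphodiesterase gene, differed by -0.46 and -0.72. Tmem250-ps, 1700091H14Rik and 1700031F05Rik differed by -0.52, -0.51 and -0.53 in pair 1 and by -0.52, -0.75 and -0.46 in pair 2. With probe sets averaged, the difference of Tmem250-ps was -0.18. The limma adjusted p of each of these 7 genes was 0.958.

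Chemokine genes of the SASP read higher in KO more often than lower. Of 19 SASP chemokines 10 were higher and 1 lower in both pairs, beside 19.0% and 26.1% of all genes, and 2 of them, Cxcl10 and Ccl5, reached 1.5-fold in both. The median difference was 0.28 in pair 1 and 0.39 in pair 2 after sham. After UVA-1 it was 0.23 in pair 1 and 0.12 in pair 2, against 0.00 and -0.03 over all genes. At 1.2-fold in both pairs 3 chemokines were higher and 0 lower, beside 230 (1.04%) and 218 (0.983%) of all genes. Cxcl2, a neutrophil chemokine, read 9.11 in WT_UVA 1, 9.67 in KO_UVA 1, 6.95 in WT_UVA 2 and 7.92 in KO_UVA 2. Ccl2 and Ccl7, monocyte chemokines, differed by 0.07 and 0.23 in pair 1 and by 1.74 and 1.58 in pair 2, where the fibroblast markers differed too. Cxcl12, a chemokine made abundantly by fibroblasts, differed by 0.01 in pair 1 and 1.46 in pair 2.

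SASP cytokines and proteases had medians near 0 in pair 1 and above 0 in pair 2. Of 28 cytokines and growth factors 7 (25.0%) were higher and 3 (10.7%) lower in both pairs, beside 19.0% and 26.1% of all genes. Their medians were -0.05 in pair 1 and 0.26 in pair 2. Il6, the cytokine most often used to mark the SASP, read 8.50 in WT_UVA 1, 8.76 in KO_UVA 1, 4.70 in WT_UVA 2 and 4.70 in KO_UVA 2. The Il6 level differed more between the numbers than between the genotypes, and number 2 was dim, at intensities of 26 and 26. Pair 1 differed by 0.25 after UVA-1 and by 0.87 after sham, and pair 2 by 0.00 and -0.26. Edn1, the endothelin 1 gene, whose product stimulates melanocytes, read 6.13, 6.66, 6.17 and 6.98, with both KO arrays above both WT arrays. Il33, an alarmin cytokine, read 10.63, 10.47, 7.37 and 10.21 and had the largest difference of pair 2, at 2.85, beside -0.16 in pair 1. Of 25 proteases and inhibitors 8 (32.0%) were higher and 2 (8.0%) lower in both pairs, with medians of 0.00 and 0.28. Mmp3 and Mmp10, stromelysin genes, differed by 0.12 and 0.19 in pair 1 and by 1.75 and 0.99 in pair 2. The fibroblast markers moved with these values, with medians of -0.02 and 1.19, and their part in them was not tested.

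**Figure D4:**
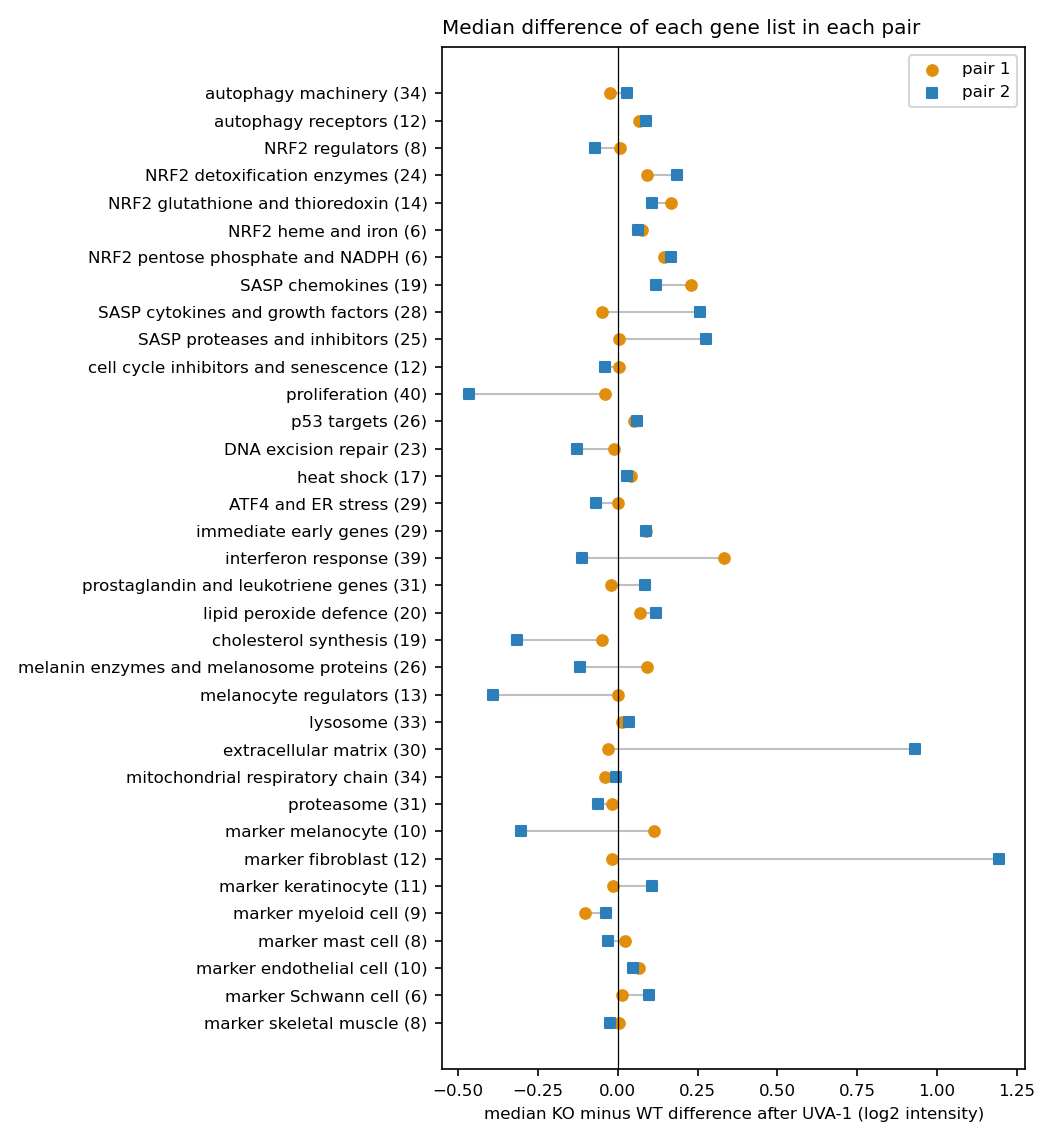
Median KO minus WT difference after UVA-1 of each gene list in pair 1 (circles) and pair 2 (squares), in log2 intensity, with the number of measured members in brackets; the vertical line is 0. Fibroblast markers had medians of -0.02 and 1.19 and extracellular matrix genes of -0.03 and 0.93, whereas the 4 lists drawn up as NRF2 target genes had medians above 0 in both pairs.

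Genes listed as NRF2 targets read higher in KO in both pairs more often than lower, most of them by little. Of 24 detoxification enzymes 12 (50.0%) were higher and 1 lower in both pairs, beside 19.0% and 26.1% of all genes. Their medians were 0.14 and 0.24 after sham, and 0.09 and 0.19 after UVA-1. At 1.2-fold in both pairs 4 were higher, beside 1.04% of all genes, and at 1.5-fold 3, beside 0.0857%. The 3 at 1.5-fold were Nqo1, Adh7 and Cyp1b1, described above, and the list was drawn up with their values known. Cyp1b1 is best known as a target of the aryl hydrocarbon receptor, so the counts of this list are not of NRF2 targets alone. Ephx1, the microsomal epoxide hydrolase, differed by 0.31 and 0.15, and Aox1, aldehyde oxidase, by 0.40 and 0.32. Of 14 genes of the glutathione and thioredoxin systems 10 were higher and 1 lower in both pairs, with medians of 0.17 and 0.11. Gclm, the modifier subunit of glutamate-cysteine ligase, which makes the precursor of glutathione, read 12.55 in WT_UVA 1, 12.76 in KO_UVA 1, 12.88 in WT_UVA 2 and 13.09 in KO_UVA 2, a difference of 0.21 in each pair. The cystine transporter gene Slc7a11 differed by 0.32 and 0.20. Of 6 pentose phosphate and NADPH genes 4 were higher in both pairs, among them Taldo1, transaldolase, at 0.19 and 0.27. Of 6 heme and iron genes 4 were higher in both, and Hmox1, heme oxygenase 1, read 13.54, 13.56, 13.11 and 13.40. Of the regulators, Nfe2l2, which encodes NRF2, differed by 0.01 and -0.21, and Keap1 by -0.05 and -0.12.

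Interferon-response genes read higher in KO in pair 1 and not in pair 2. Of 39 genes 9 (23.1%) were higher and 4 (10.3%) lower in both pairs, beside 19.0% and 26.1% of all genes. The medians were 0.33 in pair 1 and -0.11 in pair 2, beside 0.17 and -0.23 after sham. Usp18, which restrains interferon signalling, read 7.82 in WT_UVA 1, 8.92 in KO_UVA 1, 9.61 in WT_UVA 2 and 8.96 in KO_UVA 2, a difference of 1.10 in pair 1 and -0.65 in pair 2. Oas1g, a gene of the oligoadenylate synthetase family, differed by 0.77 and -1.75. Rtp4, Gbp3, Oasl2 and Rsad2, all interferon-induced, differed by 1.07, 1.01, 0.96 and 0.94 in pair 1 and by -0.44, -0.05, -0.23 and -0.25 in pair 2. Irf1, a transcription factor induced by interferon gamma, read higher in both pairs, by 0.39 and 0.34. The mean level of the list was 7.84 in WT_UVA 1 and 8.24 in KO_UVA 1, and 8.56 and 8.45 in pair 2. The lowest of the 4 arrays was WT_UVA 1, which was also the array with low Y-linked genes, and whether the one bears on the other was not tested.

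Proliferation genes read lower in KO, mainly in pair 2. Of 40 genes 21 (52.5%) were lower and 0 higher in both pairs, beside 26.1% and 19.0% of all genes, with medians of -0.04 and -0.47, and 8 were lower at an unadjusted limma p below 0.05, where 2.11% of all genes were. At 1.2-fold in both pairs 7 were lower, beside 0.983% of all genes, and none reached 1.5-fold in both, beside 0.0271%. Ccna2, cyclin A2, read 7.90 in WT_UVA 1, 7.45 in KO_UVA 1, 11.23 in WT_UVA 2 and 10.58 in KO_UVA 2. Rad51ap1, a recombination factor, differed by -0.46 and -0.71, and Cdc20, an activator of the anaphase-promoting complex, by -0.39 and -0.71. Mki67, the Ki-67 gene, differed by 0.04 and -0.70. The mean level of the list was 7.95 and 7.89 in pair 1 against 9.93 and 9.46 in pair 2, so the numbers differed more than the genotypes. After sham the median differences of the list were -0.08 in pair 1 and -0.63 in pair 2.

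Senescence regulators had no common direction. Of 12 measured genes of cell cycle inhibition and senescence, 3 (25.0%) were higher and 3 (25.0%) lower in both pairs. Cdkn1a, which encodes the cell cycle inhibitor p21, read 13.16 in WT_UVA 1, 13.22 in KO_UVA 1, 13.36 in WT_UVA 2 and 13.27 in KO_UVA 2. Cdkn2a, which encodes p16 and p19ARF, read 9.87, 9.97, 9.39 and 10.10, higher in KO by 0.09 in pair 1 and 0.71 in pair 2. Lmnb1, lamin B1, whose loss is used as a mark of senescence, read 8.24, 7.82, 8.61 and 8.04, with both KO arrays below both WT arrays. Its pair differences were -0.42 and -0.57, and the difference was -0.49 (SE 0.19, limma adjusted p = 0.958). Among 26 p53 targets 11 (42.3%) were higher and 6 (23.1%) lower in both pairs, beside 19.0% and 26.1% of all genes. Perp, a p53 target of cell adhesion and death, differed by 0.43 and 0.64, and Plk2, a stress-responsive kinase, by 0.31 and 0.41.

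Immediate early genes read higher in KO in both pairs more often than lower, by small amounts. Of 29 such genes 13 (44.8%) were higher and 4 (13.8%) lower in both pairs, beside 19.0% and 26.1% of all genes, with medians of 0.09 in each pair. Atf3, a transcription factor of the stress response, read 9.09 in WT_UVA 1, 9.54 in KO_UVA 1, 9.36 in WT_UVA 2 and 10.21 in KO_UVA 2. Fos differed by 0.13 in pair 1 and -0.88 in pair 2. Of 17 heat shock genes 7 were higher and 2 lower in both pairs, including the inducible Hsp70 genes Hspa1a (0.56 and 0.18) and Hspa1b (0.26 and 0.36), whose near-identical sequences an array may not separate. Of 29 genes of the ATF4 and endoplasmic reticulum stress responses 10 were higher and 11 lower in both pairs. Among 23 genes of DNA excision repair 1 was higher and 8 (34.8%) were lower in both pairs, beside 19.0% and 26.1% of all genes.

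Genes of prostaglandin and leukotriene metabolism split by pair. Ptgs2, cyclooxygenase 2, read 12.92 in WT_UVA 1, 12.89 in KO_UVA 1, 9.76 in WT_UVA 2 and 11.46 in KO_UVA 2, a difference of -0.02 in pair 1 and 1.69 in pair 2. Ptges, the inducible prostaglandin E synthase, differed by 0.05 and 1.18. Both enzymes were highest in number 1, where the fibroblast markers were also highest. Of the 31 genes of the list 8 (25.8%) were higher and 5 (16.1%) lower in both pairs, beside 19.0% and 26.1% of all genes. The medians were -0.02 and 0.08. Alox8, a lipoxygenase gene, differed by -0.32 and -0.35. Among 20 genes of defence against lipid peroxides 9 were higher and 2 lower in both pairs, and Gpx4, which reduces lipid peroxides in membranes, differed by 0.06 and 0.13.

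Melanocyte regulators had a median near 0 in pair 1 and below 0 in pair 2. Mitf, the master transcription factor of melanocytes, read 10.34 in WT_UVA 1, 10.28 in KO_UVA 1, 11.93 in WT_UVA 2 and 11.53 in KO_UVA 2. Tyr, tyrosinase, read 10.19, 10.43, 12.01 and 11.78, with differences of 0.24 in pair 1 and -0.23 in pair 2. Of 13 melanocyte regulators 0 were higher and 5 lower in both pairs, with medians of 0.00 and -0.39. Ednrb, the endothelin receptor of the pigment lineage, differed by 0.15 and -1.35, and Mc1r, the melanocortin receptor, by -0.12 and -0.90. Of 26 genes of melanin enzymes and melanosome proteins 2 were higher and 5 (19.2%) lower in both pairs, beside 19.0% and 26.1% of all genes, with medians of 0.09 and -0.12; Hps5, needed for the biogenesis of lysosome-related organelles, differed by -0.35 and -0.49. Cholesterol synthesis genes read lower in both pairs in 10 of 19 cases (52.6%, beside 26.1% of all genes) and higher in 0, with medians of -0.05 and -0.32. The mean melanocyte marker level was 12.37 in KO_UVA 2 and 12.73 in WT_UVA 2, and the part of this gap in the differences of pair 2 was not tested.

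Genes with large differences in pair 2 often differed between the numbers as well. Among the 768 genes at least 1.5-fold higher in KO in pair 2, 563 (73.3%) were also at least 1.5-fold higher in number 1 than in number 2 in WT_ctrl, and 355 (46.2%) were so in KO_ctrl, against 7.45% and 6.29% of all genes. Among the 339 genes lower in KO in pair 2, 193 (56.9%) were lower in number 1 than in number 2 in WT_ctrl and 123 (36.3%) in KO_ctrl, against 8.13% and 5.25% of all genes. These genes were chosen on a difference that includes WT_UVA 2. The difference between the numbers correlated at 0.916 between WT_ctrl and WT_UVA. The WT_ctrl shares therefore follow in part from the choice and are a description only. Fibroblast and matrix genes gave the clearest cases of large differences in pair 2. Of 30 extracellular matrix genes 10 (33.3%) were higher and 4 (13.3%) lower in both pairs, beside 19.0% and 26.1% of all genes. The medians, however, were -0.03 and 0.93. Pdgfra, a growth factor receptor of fibroblasts, read 12.60 in WT_UVA 1, 12.47 in KO_UVA 1, 8.50 in WT_UVA 2 and 10.16 in KO_UVA 2. Col6a3, a collagen gene, differed by 0.14 and 1.72. Lum, lumican, was the fibroblast marker with the largest difference in pair 1, at 0.48, beside 1.02 in pair 2. Among 6899 genes with a mean log2 level of at least 6 that differed by less than 1.2-fold between the numbers in the sham arrays, 48.5% had the same direction in both pairs and r across genes was 0.02.

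Most genes that read at least 1.5-fold higher in KO in both pairs after UVA-1 read higher in both pairs after sham treatment too. Of the 19 genes higher in KO in both pairs after UVA-1, 18 were higher in both sham pairs and 12 reached 1.5-fold there, and their median difference was 1.02 after UVA-1 and 0.90 after sham. These genes, and the 6 lower ones, were chosen on their values after UVA-1, so a smaller median after sham can follow from that choice, and the medians are a description only. The exception was Gm15455, which differed by 0.53 and -0.19 after sham. Cxcl10 differed by 1.57 and 1.24 in the sham pairs, Cyp1b1 by 1.73 and 1.31, Nqo1 by 1.12 and 1.44, and Ap1s2 by 1.18 and 1.12. Of the 6 genes lower in KO, 3 were lower in both sham pairs and 1, Moxd1, reached 1.5-fold there, with median differences of -0.79 after UVA-1 and -0.31 after sham. Of all 22180 genes, 42 were at least 1.5-fold higher and 6 at least 1.5-fold lower in KO in both sham pairs. The share of all genes higher or lower in both sham pairs by any amount was not counted. Whether the genotype difference itself differed between UVA-1 and sham was tested as an interaction. With limma 0 genes had an adjusted p below 0.05 (0%) and 458 had an unadjusted p below 0.05, and the smallest adjusted p was 1. The interaction was 0.43 (SE 0.41) for Cxcl10, 0.59 (SE 0.40) for Ifit1, -0.29 (SE 0.18) for Nqo1 and -0.83 (SE 0.16) for Zfp108. Sham and UVA arrays of the same genotype and number correlated at 0.996 to 0.997, and whether they came from one culture is not given in the labels.

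**Figure D5:**
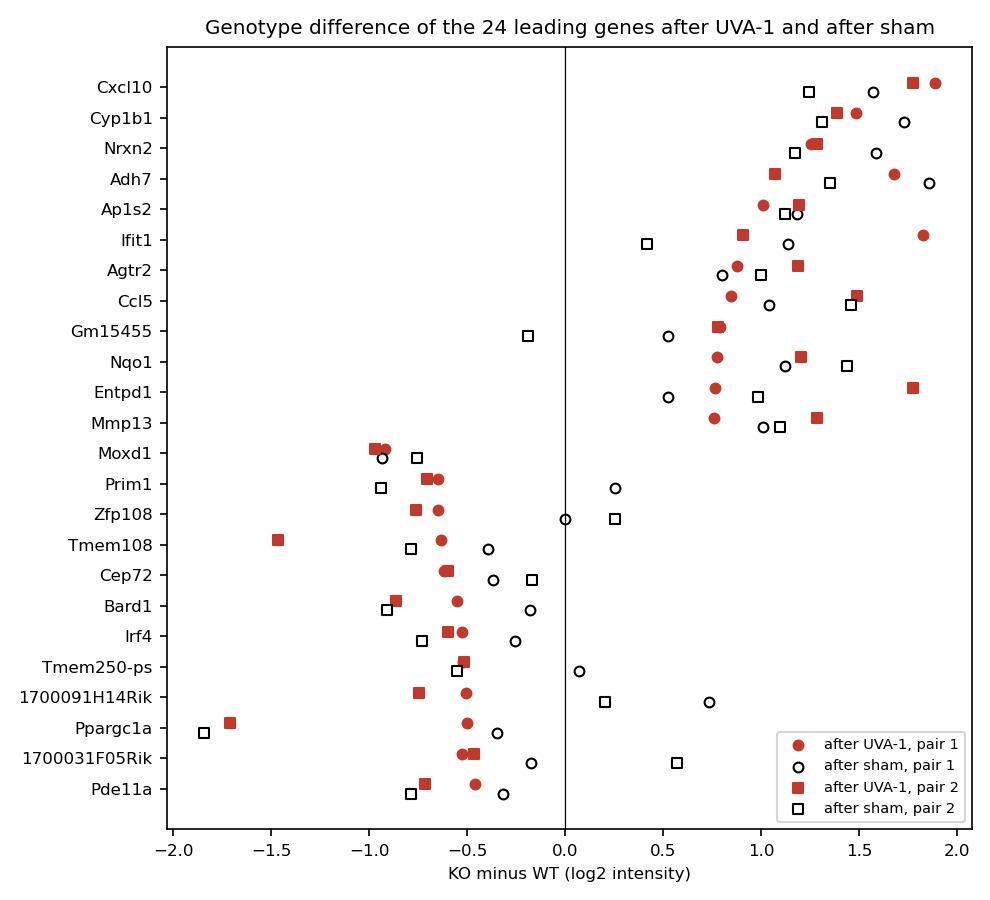
KO minus WT difference in log2 intensity of the 24 leading genes after UVA-1 (filled) and after sham treatment (open), with pair 1 as circles and pair 2 as squares. The sham values of Cxcl10, 1.57 and 1.24, lie below its UVA-1 values, 1.89 and 1.78, whereas for Zfp108 the sham values are 0.00 and 0.25 beside UVA-1 values of -0.65 and -0.76.

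Other genes read in opposite directions in the pairs. Prl3a1, a prolactin family gene, read 11.15 in WT_UVA 1, 10.36 in KO_UVA 1, 5.88 in WT_UVA 2 and 7.46 in KO_UVA 2, with differences of -0.78 in pair 1 and 1.58 in pair 2. Its sham differences were -0.75 and 1.88. Eya4, a transcriptional coactivator gene, differed by -0.63 and 0.65, and Slc5a7, a choline transporter gene, by -0.65 and 0.62. Slc5a7 differed by -0.77 and 0.59 after sham, so that the opposite signs of Prl3a1 and Slc5a7 were also seen without irradiation.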

How the data were processed

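RNA of cultured mouse melanocytes (8 samples, in 4 groups of 2) was hybridised to Affymetrix whole-transcript arrays with 1 colour. Groups and numbers were taken from the sample titles. The deposited intensity values, 1 per probe set and array, were made by the authors with robust multi-array averaging (RMA) in Affymetrix Expression Console 1.3.1.187, per the submitters' processing notes. The genome build is not given in the sources used here. The deposited intensities are whole numbers on a linear scale from 7 to 22585, with array medians of 110 to 115. RMA makes the arrays' distributions nearly equal, so a shift of most genes in 1 direction would not be seen, and whole numbers coarsen dim genes.

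Log2 was taken with no pseudocount. Of 41345 probe sets, 23521 had a single symbol in the platform annotation, 1814 several and 16010 none. For 1082 genes with several single-symbol probe sets the brightest by its mean over the 8 arrays was taken, which gave 22180 genes, and 21994 of them had the same symbol in the RefSeq gene table. No filter on dim genes was applied. Groups were fitted with limma 3.58.1 in R 4.3.3 (lmFit, eBayes with trend) as 4 group means over all 8 arrays with the replicate number as a block, with Benjamini-Hochberg adjustment over all genes, a threshold of 0.05 and two-sided tests. The contrasts tested were KO_UVA minus WT_UVA, and that difference minus KO_ctrl minus WT_ctrl. The SE and adjusted p of each gene come from this fit.

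The block was used because the arrays were compared in pairs by number. The difference between the numbers correlated across genes at 0.799 to 0.916 in all 6 pairs of groups. What a number stands for is not in the labels. Beyond the word biological nothing says which cultures or animals the duplicates came from, so p-values measure only the spread between these samples. On simulated data with known changes in 200 genes, drawn for KO vs WT after UVA over 22180 genes, the fit recovered 89% at a log2 change of 1, 99.5% at 2 and 100% at 3, with 14, 12 and 16 false calls among the unchanged genes. The simulation used the real means, the difference between the numbers and the residual spread, drawn independently for each array. In the real arrays the difference between the numbers correlated at 0.916 (WT) and 0.843 (KO) between sham and UVA, and at 0.799 to 0.818 across genotypes. Deviations shared within a genotype and number were not simulated, so the percentages hold for the simulated data only. In the real fit Ap1s2, at a difference of 1.10, had a limma adjusted p of 0.108. The lack of calls thus does not show that 2-fold changes were absent.

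The genes and lists were chosen with earlier results of these data known. Named genes were the 12 genes in each direction with the largest smaller pair difference at a mean log2 of at least 6, up to 4 members of each list past 1.5-fold in both pairs or else its first 2 members, 11 fixed genes (Atg7, Sqstm1, Cdkn1a, Cdkn2a, Lmnb1, Il6, Ptgs2, Hmox1, Nqo1, Mitf, Tyr), the 5 genes with the largest opposite pair differences, and the 3 genes with the smallest p in each direction and for the interaction. Other list members, the leading genes of a single pair, the Y-linked genes and Xist, and the comparison of the numbers were chosen after their values were seen. Promoters are RefSeq windows of GRCm38.p6, matched by Entrez gene identifier. Alternatives left out the block or the trend, changed the arrays, the block, the pseudocount (16), the scaling, the filter, the probe sets or the fold, or left out each array in turn.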

Additional observations from a re-analysis of the deposited data

Results flagged for a closer look

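In 6 genes named by the rule the genotype difference had one sign in both pairs after UVA-1 and the opposite sign in both pairs after sham. 1700091H14Rik and Olfr566 were named for a small interaction p, so their opposite signs follow largely from that choice. The share of such genes over all genes was not counted, so the 6 are a description only. No single-gene interaction passed with limma (smallest adjusted p = 1, 458 genes at an unadjusted p below 0.05), and groups of 2 arrays are too small for a check of single outlying arrays. 1700091H14Rik, an unnamed transcript, differed by -0.51 and -0.75 after UVA-1 and by 0.73 and 0.20 after sham, a change of the difference of -1.09 (SE 0.21). Olfr566, an olfactory receptor gene, differed by 0.08 and 0.24 after UVA-1 and by -0.58 and -0.64 after sham, a change of the difference of 0.76 (SE 0.15). Ddit3, the stress transcription factor CHOP, differed by 0.10 and 0.16 after UVA-1 and by -0.11 and -0.11 after sham, a change of 0.24. Xpa, a damage-recognition protein of excision repair, differed by -0.03 and -0.13 after UVA-1 and by 0.03 and 0.14 after sham, a change of -0.17. The mast cell protease genes Cpa3 and Mcpt4 were dim, with levels between 3.46 and 4.64 in the UVA arrays, and their genotype differences changed by -0.21 and 0.42.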

How the results depend on the processing

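Under limma, 0 genes passed for KO against WT after UVA-1 under all 17 alternatives, and 0 for the interaction under all 16; the fit on the UVA arrays alone cannot give an interaction. Without the replicate block 0 genes passed either test, with 352 and 294 genes at an unadjusted p below 0.05 and a smallest adjusted p of 1 for both, so the block changed no call. Over all alternatives the smallest adjusted p after UVA-1 ranged from 0.0766 to 1. Leaving out each array in turn gave 0 calls each time for both tests. The 19 genes higher in both pairs became 5 at 2-fold and 230 at 1.2-fold. The 6 lower became 0 at 2-fold, 218 at 1.2-fold and 2 with log2(intensity + 16). Leaving out a UVA array gives no such count, since 1 pair is left. Of 34 genes under 17 alternatives each, 4 changed sign. When quantile normalized again Cdkn1a was 0.00023 and Tyr -0.028, and with log2(intensity + 16) Tyr was -9.95e-05. As each array was left out in turn, Cdkn1a ranged from -0.13 (without WT_UVA replicate 1) to 0.10 (without WT_UVA replicate 2), and Mitf from -0.48 to 0.026 without the same arrays. Tyr ranged from -0.23 (without WT_UVA replicate 1) to 0.23 (without WT_UVA replicate 2) and was -0.08 without KO_UVA replicate 1. Il6 ranged from -0.31 (without KO_UVA replicate 1) to 0.56 (without KO_UVA replicate 2) and was -0.14 without WT_UVA replicate 2. Ptgs2 was 0.84 and came to 0.17 without WT_UVA replicate 2. The cause was not tested.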

Other observations

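Each pair also had leading genes of its own, chosen after their values were seen. In pair 1, Map2, a microtubule-associated protein gene best known from neurons, read 9.08 in WT_UVA 1 and 7.96 in KO_UVA 1, beside 7.09 and 7.11 in pair 2. Esm1, a secreted proteoglycan gene, differed by -1.05 in pair 1 and -0.16 in pair 2. Ngfr, the low-affinity neurotrophin receptor of neural crest cells and their progeny, read 7.62 in WT_UVA 1, 8.80 in KO_UVA 1, 8.93 in WT_UVA 2 and 9.27 in KO_UVA 2. In pair 2, Fabp4, a fatty acid binding protein of adipocytes and macrophages, read 6.70 in WT_UVA 2 and 9.42 in KO_UVA 2, against 11.16 and 10.99 in pair 1. Ctla2a, a cysteine protease inhibitor gene, and Il1r1, the interleukin 1 receptor gene, differed by 2.84 and 2.26 in pair 2 and by -0.29 and 0.05 in pair 1. Lyz2, the lysozyme of myeloid cells, differed by 0.32 and 1.78, whereas Cd68, another myeloid marker, differed by 0.04 and 0.12.

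Genes of housekeeping complexes differed by small amounts. Of 34 genes of the mitochondrial respiratory chain 7 were higher and 14 (41.2%) lower in both pairs, beside 19.0% and 26.1% of all genes, with medians of -0.04 and -0.01. Of 31 proteasome genes 4 were higher and 14 (45.2%) lower, with medians of -0.02 and -0.06, and in 9 of the 31 both KO arrays lay below both WT arrays, beside 11.1% of all genes. None of these genes reached 1.2-fold in both pairs.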
